A study of Mus musculus with 14 samples.

Results

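The myosin heavy chain genes of mouse heart muscle, Myh6, Myh7 and Myh7b, were followed across 14 ventricular RNA libraries. They were taken by name, and all 3 were found among the 24972 genes listed. At 9 to 10 weeks of age, male C57BL/6N mice were operated on, either as sham controls or with a band that constricts the transverse aorta (TAC) and so raises the load on the ventricle. TAC mice with an ejection fraction of 40% to 60% after 2 weeks went into the study. AAV2/9, a virus that carries genes into heart muscle, was injected into the tail vein 2 weeks after surgery and encoded either GFP, a fluorescent control protein, or JP2NT, an N-terminal fragment of the dyad protein junctophilin-2. Ventricles were collected 8 weeks after surgery. The groups were Sham+GFP (3 libraries), TAC+GFP (4 libraries), Sham+NT (3 libraries) and TAC+NT (4 libraries), where NT stands for JP2NT, so every mouse carried a virus and no group went without one. Whether each library is a separate mouse, and which promoter drives the vector, is not given in the labels, so the p-values measure the spread between libraries.

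Myosin heavy chains are the motor proteins of the thick filament. Myh6 encodes the fast alpha chain that predominates in the adult mouse ventricle, and Myh7 encodes the slower, more economical beta chain of the fetal ventricle. A rise of Myh7 with a fall of Myh6 is a widely used sign of pathological hypertrophy in rodents. Myh7b is a more distant relative, and each of the 3 carries a microRNA in an intron.

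Myh6 (ENSMUSG00000040752.16) lies on the minus strand of mm10 at chr14:54941921-54966927 and Myh7 (ENSMUSG00000053093.16) on the same strand at chr14:54970684-54994626, with 3756 bases between them. Myh7b (ENSMUSG00000074652.3) lies on the plus strand at chr2:155611212-155634307. Mir208a is in intron 29 of 38 of Myh6, Mir208b in intron 31 of 40 of Myh7, and Mir499 in intron 19 of 41 of Myh7b. The mature sequences, from RefSeq on GRCm38.p6, are printed because they tie the 3 genes together. Capitals mark the seed, bases 2 to 8, with which a microRNA pairs with its targets.
mmu-miR-208a-3p, from Myh6, chr14:54949072-54949093, minus strand: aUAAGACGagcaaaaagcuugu
mmu-miR-208b-3p, from Myh7, chr14:54975710-54975731, minus strand: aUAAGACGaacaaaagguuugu
mmu-miR-499-5p, from Myh7b, chr2:155622893-155622913, plus strand: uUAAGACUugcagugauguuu
The first and second share their seed, which only 2 of 1738 mature mouse sequences in the RefSeq table hold, and match at 19 of 22 positions. They differ by G10A, A16G and C18U, with the base of miR-208a-3p first and positions counted from 1 at the 5′ end. The sequence from Myh7b shares the first 6 bases of that seed, UAAGAC. The rows of the 3 microRNA genes were listed at 0 in all 14 libraries, so the microRNAs themselves were not measured by this polyadenylated RNA.

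The windows of 250 bases before the RefSeq start sites of Myh6 and Myh7 each hold 1 copy of GGAATG, the core of the MCAT element that TEAD factors bind. It is in capitals in the stretches below, from RefSeq on GRCm38.p6.
Myh6, chr14:54966796-54966825, minus strand, 206 bases before the RefSeq start site: ctttggggaggaGGAATGtgcccaaggact
Myh7, chr14:54994810-54994839, minus strand, 201 bases before the RefSeq start site: ctagtgagccgtGGAATGttagagatattt
The RefSeq start site of Myh6, at 54966607, lies 320 bases inside the gene as the GENCODE models above draw it, so the stretch printed for Myh6 is within that gene model, while the start site of Myh7 is the same in both. GGAATG occurs on either strand in 12.6% of 32851 such windows, and the window of Myh7b does not hold it. These matches are descriptions of letters and not of binding. AGGTCA, the half-site of nuclear receptors, was found once before Myh7b, on the opposite strand, and in 14% of all windows.

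The depth was about 8650188 to 14460617 reads per library, estimated from the value of 1 read. Sham+NT replicates 1 and 2 were barely further apart than read sampling alone gives and were averaged as 1 sample, which leaves 13 samples. Values are normalised read counts, scaled jointly over the libraries. None of 10 ventricular cardiomyocyte markers was at 0, and their sum was 720800 to 758000 in Sham+GFP, 556600 to 610700 in TAC+GFP, 686100 to 714700 in Sham+NT and 543100 to 649100 in TAC+NT. In TAC+GFP against Sham+GFP, 5 of these 10 were called lower, as were 3 of 5 endothelial, 2 of 6 macrophage and 3 of 6 smooth muscle and pericyte markers, while 5 of 7 fibroblast markers and 3 of 4 red blood cell markers tested were called higher. Of all genes tested in that comparison 24.8% were called lower and 23.3% higher, so the macrophage count is near the background. Of 4 skeletal muscle markers tested, 1 was called higher and 1 lower, with Myh4 at 0 in every library, and of 6 atrial markers none was called by limma, with sums from 679.2 to 11730 over the libraries. Between the vectors in TAC hearts, 1 of 10 ventricular and 1 of 4 skeletal muscle markers were called higher in TAC+NT, and 2 of 7 fibroblast and 1 of 5 endothelial markers lower, where 2.75% of all genes were called higher and 3.4% lower. In bulk tissue, fewer cells of a type and less RNA per cell cannot be told apart, and the part of these markers in the results below was not tested.

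Myh6 was by far the most abundant of the 3. Its values were 460500, 493860 and 467140 in Sham+GFP and 495410, 488280 and 481880 in Sham+NT. They were 166590, 144550, 202300 and 164280 in TAC+GFP and 185900, 183310, 227430 and 336030 in TAC+NT. Every TAC library was below every sham library, and TAC+NT replicate 4 was the highest of the TAC libraries.

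Myh6 fell after TAC under both vectors. The mean was 473800 ± 17660 (SD, n = 3) in Sham+GFP and 169400 ± 24040 (SD, n = 4) in TAC+GFP, 2.82-fold lower (log2 fold change -1.49, SE 0.186, limma adjusted p = 1.96e-05). With JP2NT it was 486900 ± 7045 (SD, n = 2) in sham and 233200 ± 71490 (SD, n = 4) after TAC, 2.16-fold lower (log2 -1.11, SE 0.211, limma adjusted p = 0.00157). A gene was called at an adjusted p under 0.05 over the 13212 genes tested, and 48.1% of the genes tested were called in TAC+GFP against Sham+GFP in either direction and 24.8% of the genes tested were called lower. In TAC+NT against Sham+NT 31.9% of the genes tested were called and 15.8% were called lower. By log2 fold change, Myh6 ranked 139th from the lowest with GFP and 195th with JP2NT.

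Myh7 moved the opposite way. It stood at 1912, 2324 and 2527 in Sham+GFP and at 3158, 3139 and 2541 in Sham+NT. After TAC it was 94050, 95765, 58294 and 87870 with GFP and 51221, 37312, 57178 and 57182 with JP2NT. The sham and TAC libraries were separated by more than an order of magnitude, and the highest TAC+NT library was just below the lowest TAC+GFP library.

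The rise of Myh7 was 36.8-fold with GFP (log2 5.2, SE 0.179, limma adjusted p = 2.7e-10), from 2254 ± 313 (SD, n = 3) to 83990 ± 17470 (SD, n = 4). With JP2NT it was 17.7-fold (log2 4.14, SE 0.203, limma adjusted p = 4.32e-08), from 2845 ± 429.4 (SD, n = 2) to 50720 ± 9372 (SD, n = 4). In each comparison Myh7 had the 4th highest log2 fold change of all 13212 genes, of which 23.3% were called higher with GFP and 16.1% with JP2NT.

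**Figure D1:**
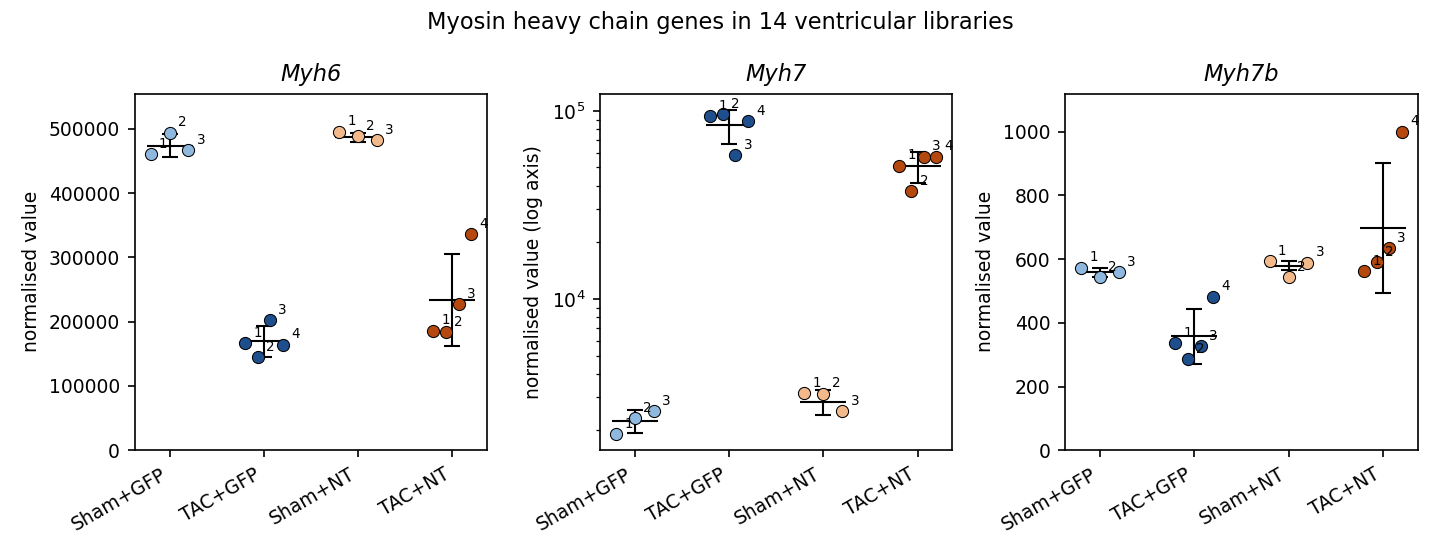
Normalised values of Myh6, Myh7 and Myh7b in 14 libraries by group, numbered by replicate; the Myh7 axis is logarithmic and the others start at 0. Horizontal lines and bars are the mean and SD over samples, with Sham+NT replicates 1 and 2 counted as 1. Myh6 is lower and Myh7 higher in every TAC library than in every sham library, and Myh7b is lower in every TAC+GFP library than in every other library.

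In TAC hearts that received JP2NT, Myh7 was 1.65-fold lower than in those that received GFP (log2 -0.72, 95% interval -1.07 to -0.37, limma adjusted p = 0.0215), in a comparison where 6.15% of all genes were called and 3.4% were called lower. The call was lost without TAC+GFP replicate 1 (log2 -0.66, limma adjusted p = 0.0704), without TAC+GFP replicate 2 (-0.65, adjusted p = 0.0781) and without TAC+NT replicate 2 (-0.58, adjusted p = 0.0562), and also with only these groups in the fit (adjusted p = 0.0843). Myh6 was 1.34-fold higher with JP2NT (log2 0.43, 95% interval 0.06 to 0.79), which was not called (limma adjusted p = 0.154). TAC+NT and TAC+GFP did overlap for Myh6, since TAC+GFP replicate 3 at 202300 was above TAC+NT replicates 1 and 2.

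The Myh7 share, Myh7 as a percentage of Myh6 plus Myh7 within a library, does not depend on how libraries are scaled. It was 0.414%, 0.468% and 0.538% in Sham+GFP and 0.633%, 0.639% and 0.525% in Sham+NT. It was 36.1%, 39.8%, 22.4% and 34.8% in TAC+GFP and 21.6%, 16.9%, 20.1% and 14.5% in TAC+NT. All 4 TAC+NT libraries were below all 4 TAC+GFP libraries, with TAC+GFP replicate 3 closest to them.

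The mean share was 33.3% ± 7.58 (SD, n = 4) in TAC+GFP and 18.3% ± 3.17 (SD, n = 4) in TAC+NT, a difference of -15.0 percentage points (two-sided exact permutation p = 0.0286, the smallest 4 against 4 can give, and 0.0714 adjusted over 5 comparisons). Against sham the difference was 32.8 points with GFP (exact permutation p = 0.0571, adjusted 0.0952) and 17.7 points with JP2NT (exact permutation p = 0.133, adjusted 0.167), each the smallest p its number of samples allows, so neither could pass 0.05. Between the sham groups, at 0.473% ± 0.0624 (SD, n = 3) and 0.580% ± 0.0788 (SD, n = 2), it was 0.107 points (exact permutation p = 0.4). The effect of TAC on the share was 15.1 points smaller with JP2NT than with GFP (exact permutation of vector labels within each surgery, p = 0.00571, adjusted 0.0286). Shuffling the labels in both surgeries assumes no vector difference in sham or in TAC hearts. Its p therefore does not test equal TAC effects alone, and it also draws on the small sham difference. Without any 1 of the 8 TAC libraries the difference in TAC effect stayed between -18.7 and -12.9 points, with an adjusted exact permutation p of 0.0571. Fewer libraries leave fewer assignments of labels, so an equally extreme difference gets a larger p there.

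**Figure D2:**
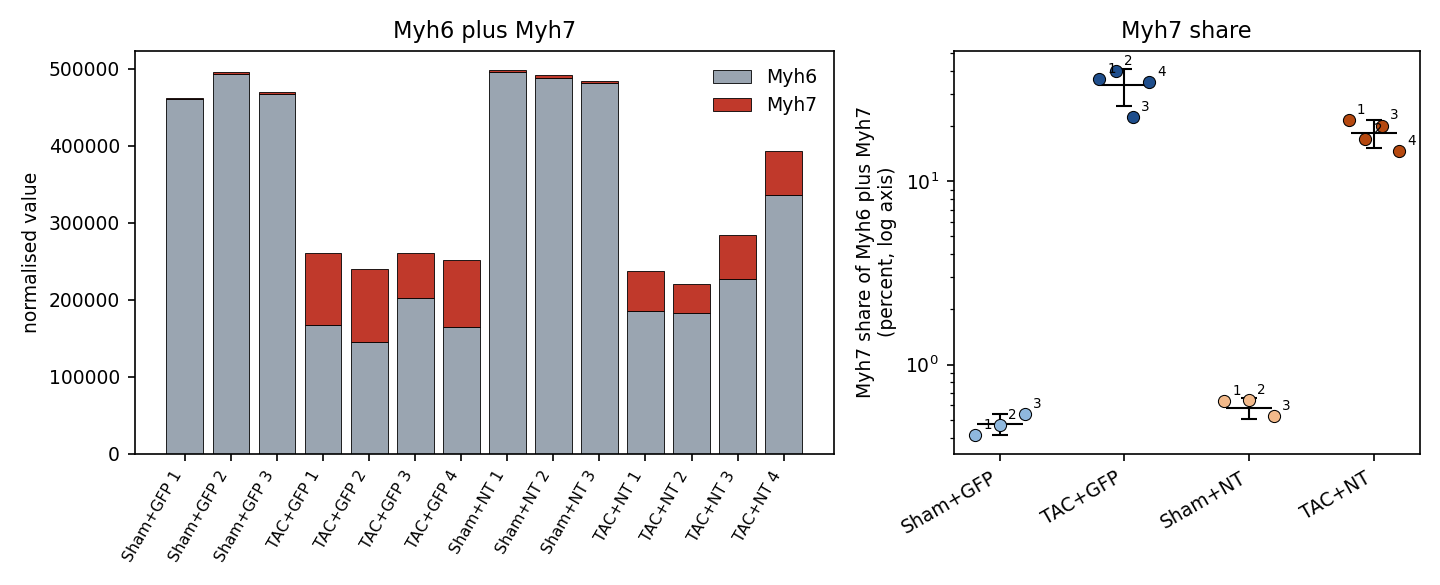
Left, Myh6 and Myh7 normalised values stacked for each library, from 0. Right, the Myh7 share of their sum in percent on a log axis, by group and replicate number, with mean and SD. The share is 14.5% to 39.8% in TAC libraries and under 0.64% in sham libraries.

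The rise of Myh7 did not make up for the fall of Myh6 in these values. Myh6 plus Myh7 was 476100 ± 17780 (SD, n = 3) in Sham+GFP and 253400 ± 9605 (SD, n = 4) in TAC+GFP. These libraries did not overlap (exact permutation p = 0.0571, the smallest 3 against 4 can give, and 0.286 adjusted over 5 comparisons). The sum was 489700 ± 7474 (SD, n = 2) in Sham+NT and 283900 ± 77760 (SD, n = 4) in TAC+NT, where replicate 4 reached 393200. For these groups the exact permutation p was 0.133, the smallest 2 against 4 can give, and 0.333 adjusted. Per kilobase of transcript, the scale on which genes can be compared, Myh6 was 77510 and Myh7 367.5 in Sham+GFP, against 27720 and 13690 in TAC+GFP. So Myh6 remained the more abundant of the pair after TAC in each group mean, and the per-length share, 33.2% in TAC+GFP and 18.2% in TAC+NT, differed little from the share above. The Myh6 and Myh7 transcripts hold many identical stretches: 1966 of 6083 windows of 31 bases (32.3%) and 687 of 6014 windows of 100 bases (11.4%) of Myh6 occur in Myh7, so the split of reads between them rests on the assignment the authors' software made. Myh7b shares 4 of the 31-base windows with Myh6.

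Myh7b was lower after TAC with GFP, as Myh6 was, but was not called lower after TAC with JP2NT. It was 573.5, 544.5 and 558.4 in Sham+GFP and 594.4, 543.7 and 588.8 in Sham+NT. It was 336.0, 286.8, 325.9 and 482.6 in TAC+GFP and 561.7, 591.8, 635.7 and 1000 in TAC+NT. All TAC+GFP libraries were below all others, and TAC+NT replicate 4 stood far above the other 3 of its group. Per kilobase, Myh7b was at 90.67 in Sham+GFP, below both other genes.

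Myh7b fell 1.59-fold after TAC with GFP, from 558.8 ± 14.51 (SD, n = 3) to 357.8 ± 85.84 (SD, n = 4) (log2 -0.67, SE 0.181, limma adjusted p = 0.00698). With JP2NT the difference from sham was not called (log2 0.23, 95% interval -0.21 to 0.67, limma adjusted p = 0.426). TAC+NT, at 697.3 ± 204.2 (SD, n = 4), was 1.93-fold above TAC+GFP (log2 0.95, 95% interval 0.59 to 1.31, limma adjusted p = 0.00633), and the call held in each of 25 alternative settings, which included leaving out TAC+NT replicate 4. It was the 103rd highest log2 fold change in that comparison, in which 2.75% of genes were called higher.

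The interaction of surgery with vector, tested in limma over all genes with 0.0757% of genes called, 0.0378% higher and 0.0378% lower, was not called for any of the 3: log2 0.39 for Myh6 (adjusted p = 0.649), -1.06 for Myh7 (95% interval -1.63 to -0.48, adjusted p = 0.157) and 0.90 for Myh7b (95% interval 0.31 to 1.48, adjusted p = 0.226). Without TAC+GFP replicate 3 that of Myh7 was called (log2 -1.22, limma adjusted p = 0.0302). Between sham groups none of the 13212 genes was called (0% by limma, 581 at an unadjusted p under 0.05), and the members differed by log2 0.04 for Myh6, 0.34 for Myh7 (95% interval -0.12 to 0.79) and 0.05 for Myh7b.

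**Figure D3:**
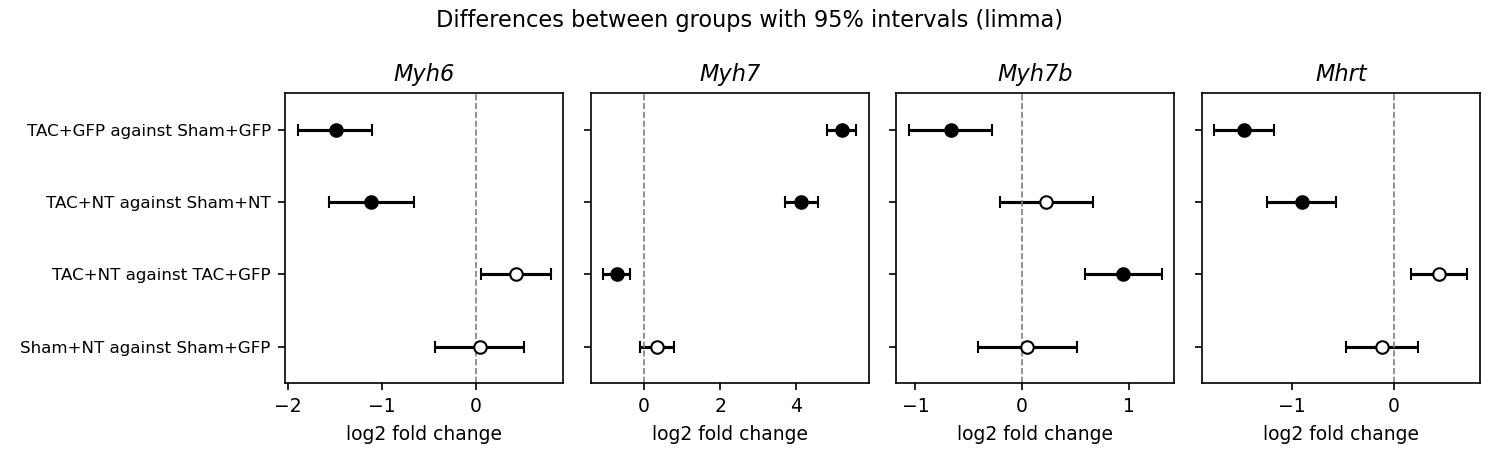
Log2 fold changes with 95% intervals from limma for Myh6, Myh7, Myh7b and Mhrt in 4 comparisons; filled circles have an adjusted p under 0.05. Myh7 is at 5.2 and 4.14 in the TAC comparisons and -0.72 between vectors in TAC hearts, and Myh7b is at 0.95 there.

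Mhrt, a long noncoding RNA of the Myh7 locus, known to be lowered in loaded hearts, lies on the plus strand at chr14:54968678-54974349, where 3666 of its 5672 bases overlap Myh7. The libraries keep strand, but whether the counting used it is not given in the sources used here. Its values were 476.6, 473.6 and 478.3 in Sham+GFP and 156.4, 143.8, 202.2 and 191.3 in TAC+GFP. They were 426.6, 428.9 and 451.2 in Sham+NT and 215.8, 220.5, 205.2 and 309.7 in TAC+NT. It was lower in every TAC library, as was Myh6, while the overlapping Myh7 was higher in each of them. Mhrt fell 2.76-fold with GFP (log2 -1.47, SE 0.139, limma adjusted p = 2.1e-06) and 1.87-fold with JP2NT (limma adjusted p = 0.000915), and was 1.36-fold higher in TAC+NT than TAC+GFP without passing the test (limma adjusted p = 0.0549). That difference was called without TAC+GFP replicate 3 (adjusted p = 0.0305), TAC+GFP replicate 4 (0.0439) or TAC+NT replicate 3 (0.0372).

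**Figure D4:**
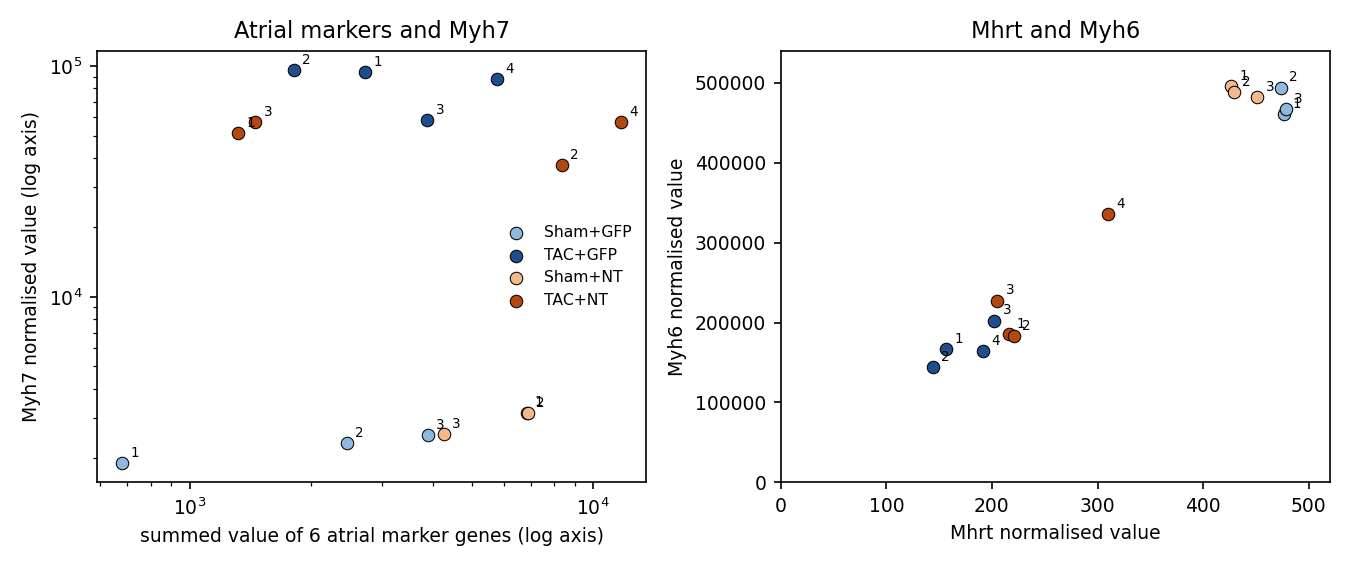
Left, Myh7 against the summed value of 6 atrial marker genes, both on log axes; right, Myh6 against Mhrt, each point a library with its replicate number. Sham libraries with a higher atrial sum had higher Myh7, in nearly the same order. TAC+NT replicate 4 is highest in atrial sum, and in Myh6 and Mhrt among TAC libraries. TAC+NT replicate 2, next in atrial sum, is lowest in Myh7 among TAC libraries.

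Markers of atrial muscle, 6 genes in all, moved with the members in some libraries. In the 6 sham libraries the atrial sum was 679.2, 2450 and 3892 with GFP and 6834, 6875 and 4256 with JP2NT, in nearly the same order as Myh7. TAC+NT replicate 4 had the highest atrial sum, 11730, and the highest Myh6, Myh7b and Mhrt of the TAC libraries, whereas TAC+NT replicates 1 and 3 had 1318 and 1454. TAC+NT replicate 2 had the next highest atrial sum, 8362. Yet its Myh6, 183310, was the lowest of TAC+NT, and its Myh7, 37312, the lowest of the TAC libraries. The part of atrial RNA in these values was not tested. TAC+GFP, with the highest Myh7, had an atrial sum of 1809 to 5786, within the range of the sham libraries.

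Of 34 described regulators of Myh6 and Myh7, 30 passed the filter on low values. In TAC+GFP against Sham+GFP 6 rose and 13 fell, against 23.3% and 24.8% of all genes, with a median log2 fold change of -0.14 beside -0.01 over all genes. In TAC+NT against Sham+NT 5 rose and 11 fell, against 16.1% and 15.8% of all genes, so the count that rose is near the background. In TAC+NT against TAC+GFP none rose and 2 fell, against 2.75% and 3.4% of all genes. The count that fell was above the background share in both comparisons of TAC with sham, and no test was made of that.

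Thyroid hormone raises Myh6 and represses Myh7, and genes of its receptors and of the enzymes that handle it are in this list. Thra, a thyroid hormone receptor, fell 1.25-fold with GFP (limma adjusted p = 0.00784) and Thrb, another, fell 1.69-fold (adjusted p = 0.000143). Rxrg, a partner receptor, fell 2.01-fold (adjusted p = 3.09e-05). Dio2, which activates thyroid hormone, rose 17.5-fold (log2 4.13, SE 0.237, limma adjusted p = 4.77e-08). Its values were 16.82, 13.13 and 14.11 in Sham+GFP, 257.6, 298.6, 234.9 and 301.2 in TAC+GFP, 13.58, 13.71 and 18.51 in Sham+NT, and 113.2, 114.8, 198.4 and 78.45 in TAC+NT. The TAC groups did not overlap, and Dio2 was 2.27-fold lower in TAC+NT than TAC+GFP (log2 -1.18, SE 0.22, limma adjusted p = 0.00789), a call lost with TAC replicates 1 and 2 of each vector averaged (adjusted p = 0.0635). Dio3, which inactivates the hormone, was higher without passing the test (log2 1.61, limma adjusted p = 0.105), from 1.712 to 2.351 in Sham+GFP to 1.031 to 22.74 in TAC+GFP, but passed it without TAC+GFP replicate 3 (adjusted p = 0.0103).

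With JP2NT, TAC against sham gave Thra 1.3-fold lower (limma adjusted p = 0.0111), Thrb 1.56-fold lower (adjusted p = 0.00307) and Dio2 7.12-fold higher (adjusted p = 1.99e-05). Rxrg was 1.4-fold lower (adjusted p = 0.0238), a call lost without Sham+NT replicate 3 (adjusted p = 0.179). That call was also lost with division by the library total (adjusted p = 0.0557) and with only the groups compared in the fit (adjusted p = 0.0514). Thra differed by -0.04 on the log2 scale between TAC+NT and TAC+GFP (adjusted p = 0.798).

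Parp1, a chromatin enzyme, fell 1.87-fold with GFP (limma adjusted p = 8.81e-07) and Med13, a transcription coregulator and a target of miR-208a, rose 1.52-fold (adjusted p = 0.00181). Med13 rose 1.53-fold with JP2NT too (adjusted p = 0.00702), a call lost without Sham+NT replicate 3 (adjusted p = 0.0649). Nkx2-5, a cardiac transcription factor, was 1.26-fold lower in TAC+NT than TAC+GFP (limma adjusted p = 0.047), a call lost in 15 of 25 settings, among them leaving out any of 10 libraries, with adjusted p up to 0.134. Tead1, which encodes a factor that binds the motif printed above, rose 1.4-fold with GFP (limma adjusted p = 0.000521) and 1.45-fold with JP2NT (adjusted p = 0.00153). Purb and Sp3, repressors described for these promoters, rose 1.47-fold and 1.37-fold with GFP (limma adjusted p = 0.000306 and 0.00257). With JP2NT Purb rose 1.6-fold (limma adjusted p = 0.000542), and Sp3 was not called (log2 0.31, adjusted p = 0.0594), though it was in 5 of 25 settings, among them without TAC+NT replicate 4 (adjusted p = 0.00596). Tead1, Purb and Sp3 lie outside the rule for naming genes and were chosen after their values were seen.

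**Figure D5:**
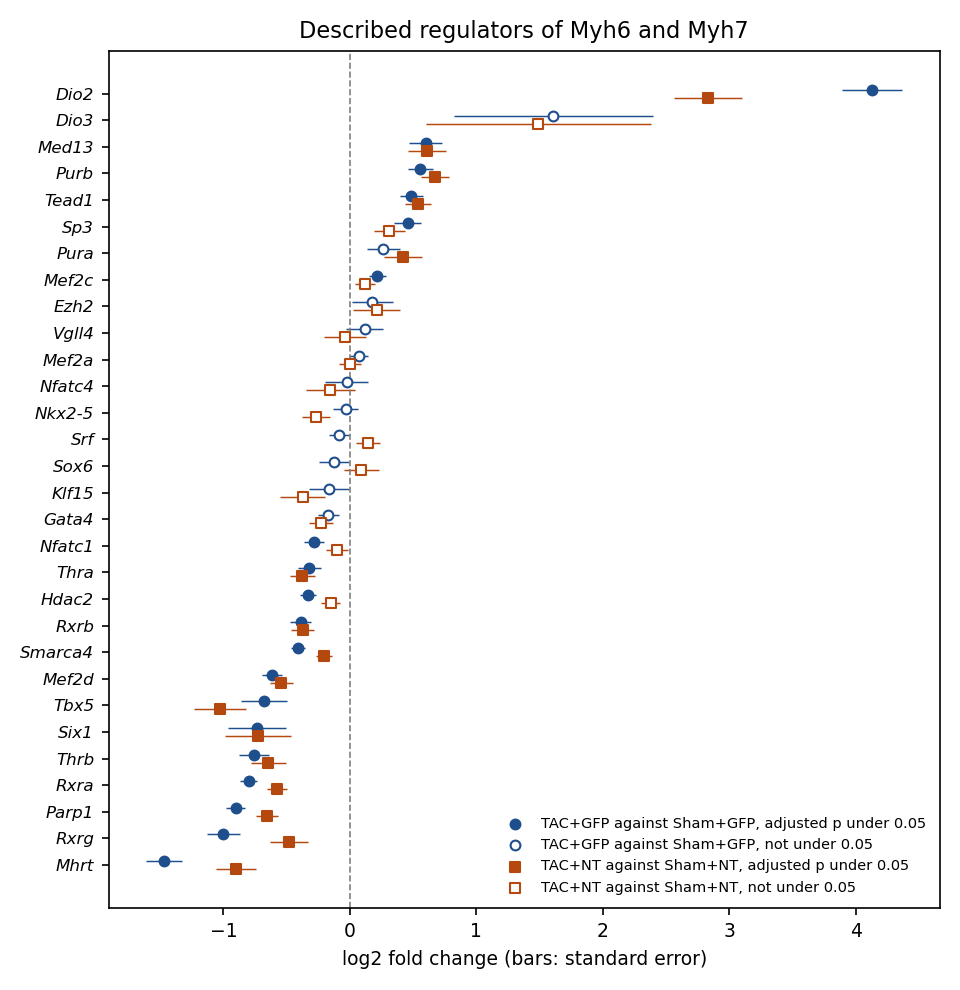
Log2 fold changes with standard errors of the 30 regulators tested, ordered by TAC+GFP against Sham+GFP (circles), with TAC+NT against Sham+NT as squares; filled symbols have an adjusted p under 0.05. Dio2 is highest and Mhrt lowest.

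Among 15 tested genes of the thick filament and of myosin folding, 4 rose and 3 fell with GFP, 3 rose and 3 fell with JP2NT, and 2 were lower in TAC+NT than TAC+GFP. Over all genes 23.3% rose and 24.8% fell with GFP, 16.1% and 15.8% with JP2NT, and 3.4% were lower in TAC+NT than TAC+GFP, so the counts of this list against sham are near the background. Unc45b, a chaperone of muscle myosin, fell 2.43-fold with GFP (log2 -1.28, limma adjusted p = 2.09e-06), and Mybpc2, a myosin binding protein of fast skeletal muscle, rose 1.88-fold (adjusted p = 0.00024). Myom2 and Myom3, of the M band that links thick filaments, rose 1.69-fold (adjusted p = 0.00013) and 1.53-fold (adjusted p = 0.00168). Myom2 was 1.36-fold lower in TAC+NT than TAC+GFP (limma adjusted p = 0.0306) and Trim55, a thick filament ligase, 1.18-fold lower (adjusted p = 0.0258). Each of the last pair lost its call in 8 of 25 settings, among them without TAC+GFP replicate 1 or 2 or TAC+NT replicate 1 or 2, with adjusted p up to 0.157 and 0.142.

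Of 7 further sarcomeric heavy chain genes, only Myh8, the perinatal skeletal chain, passed the filter, and it rose 6.74-fold with GFP at very low values of 0 to 3.579 in Sham+GFP and 11.3 to 14.1 in TAC+GFP (limma adjusted p = 0.00418). Myh4 and Myh15 were listed at 0 in all 14 libraries. Of 4 non-muscle and smooth muscle chains, Myh10 rose 1.67-fold (adjusted p = 4.7e-05) and Myh11 fell 2.17-fold (adjusted p = 0.000378) with GFP. Of 5 sarcomeric light chains, Myl1 rose 1.78-fold with GFP (limma adjusted p = 0.000205) and no other was called. Over all genes 23.3% were called higher and 24.8% lower with GFP, so these counts are not above the background to any extent that can be read. In TAC+NT against Sham+NT, Myh10 and Myl1 were called higher and Myh11 and Myh14 lower, where 16.1% and 15.8% of all genes were.

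The genes most like each member were named by Pearson correlation of log2 values over the 13 samples, a description without a test, since the samples fall into sham and TAC clusters. For Myh6 these were Dennd4b (r = 0.992), Mepce (0.989), Dglucy (0.988), Atp2a2 (0.987), which encodes the calcium pump of the sarcoplasmic reticulum, and Pcnt (0.985), and the most opposite were Slc25a36 (-0.992), Mob1b (-0.988) and Ripk1 (-0.985). For Myh7 they were Cpeb1 (0.988), Mpp5 (0.981), Ankrd1 (0.98), a stress-responsive cardiac protein, Synpo2l (0.979) and Zc3h11a (0.976), against Pxmp4 (-0.987), Sod2 (-0.986) and Tufm (-0.986). Within the 8 TAC samples alone those for Myh7 dropped to 0.621, 0.797, 0.635, 0.857 and 0.514, while those for Myh6 stayed between 0.921 and 0.96. TAC+NT replicate 4 was the highest TAC library for Myh6 and for each of the genes most like it. In Dennd4b it was at 898.7 (next 686.9) and in Pcnt at 1202 (next 837.3). Values of r without that library were not computed. For Myh7b they were Igdcc4 (0.938), Dleu2 (0.915), Susd5 (0.892), Brd3 (0.891) and Mdc1 (0.891), against Gja4 (-0.958), Adam15 (-0.929) and Clic4 (-0.908). The Myh7 share within the 8 TAC samples was most like Vps37b (0.99), Adprh (0.973) and Hbegf (0.972).

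Within the 8 TAC samples the members were set against each other in 3 relations. Myh6 and Myh7 gave r = -0.45 (permutation p = 0.268) and rho = -0.571 (permutation p = 0.151). Myh6 and Myh7b gave r = 0.812 (permutation p = 0.0205, adjusted 0.0615) and rho = 0.714 (p = 0.0576, adjusted 0.0864), and without TAC+GFP replicate 2 and TAC+NT replicate 4 r was 0.337, so this relation rests on those samples. Myh7 and Myh7b gave r = -0.58 (permutation p = 0.13, adjusted 0.195) and rho = -0.714 (permutation p = 0.0576, adjusted 0.0864), and r was -0.193 without TAC+GFP replicates 1 and 2. These samples hold both vectors, and 4 per vector are too few for a value within each.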

How the data were processed

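The deposited table holds a signal per gene, gene counts that the authors divided by scale factors, separately in the 7 GFP and the 7 JP2NT libraries; the values themselves show this. Per the submitters' processing notes, FastQC 1.0.0, STAR 2.6.1a and Salmon were used with mm10; annotation and use of strand are not given there. Only 1.11% to 2.85% of values lie within 0.001 of whole reads, so no count model was run; the plan had allowed for whole counts. Libraries were brought to 1 scale by an unweighted TMM that dropped 30% of the ratios and 5% of the levels at each end. The 13212 genes that reached a value of 10 in 3 or more samples were tested on log2(value + 1) with limma-trend (limma 3.58.1, R 4.3.3) and Benjamini-Hochberg adjustment; fold changes are on that scale and understate low genes. The fit had a mean per group, 9 residual and 5.71 prior degrees of freedom. Sham+NT replicates 1 and 2 (ratio of observed to counting variance 1.22, other pairs 1.71 to 7.89) were counted as 1 sample. Shares used two-sided exact permutation tests in Python 3.11.15 with scipy 1.17.1. The scaling and the limma fit of TAC+GFP against Sham+GFP were tested on simulated data, and the permutation tests were not. Members and lists were chosen with earlier results of these data known. Named from the lists were Mhrt, Thra, Thrb, Dio2, Dio3 and Med13 and, of each list, up to 4 called genes with the largest change in TAC+GFP against Sham+GFP and 2 in TAC+NT against TAC+GFP. Alternatives were other scalings, constants, filters, sample sets, a replicate block and leaving out each library. Gene models are GENCODE's on mm10.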

Additional observations from a re-analysis of the deposited data

Results flagged for a closer look

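In groups of 4 libraries, 52 gene and group pairs were checked for a library far from the others, by Dixon's 95% limit on the gap to the nearest library over the group's range; chance flags about 1 in 20. In TAC+NT, replicate 4 stood apart for Myh7b (1000, gap 0.831 of the range), for Mhrt (309.7, gap 0.853) and for Nkx2-5 (368.0, gap 0.867), and replicate 3 for Tead1 (3937, gap 0.943). The effect of TAC on the Myh7 share differed between vectors by -15.1 percentage points, JP2NT minus GFP, by the permutation of vector labels within each surgery. That permutation assumes no vector difference in either surgery, so it does not test equal TAC effects alone.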

How the results depend on the processing

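In 25 alternatives the calls of Myh6 and Myh7 in both TAC comparisons, and those of Myh7b in TAC+GFP against Sham+GFP and TAC+NT against TAC+GFP, kept their direction and side of the threshold. Myh7 in TAC+NT against TAC+GFP was no longer called with TAC replicates 1 and 2 of each vector averaged (log2 -0.583) or only the groups compared (-0.721), and ranged from -0.888 to -0.581 without 1 library. The Myh7 interaction was called with 14 separate libraries (-1.11), and ranged from -1.23 to -0.925 without 1 library. The share interaction was -13.8 points with those TAC replicates averaged and was not called. The samples then left give too few assignments for an adjusted p under 0.05 over 5 comparisons. Without 1 library the share interaction ranged from -18.7 to -12.9 points. The causes of these changes were not tested. As deposited, the sham difference changed sign for Myh6 (-0.0331) and Myh7b (-0.0216). Uncalled differences near 0 also changed sign. Nkx2-5 in TAC+GFP against Sham+GFP (-0.0329) was 0.0576 divided by the library total, 0.00394 with TAC replicates averaged, and 0.0169 and 0.00746 without Sham+GFP or TAC+GFP replicate 1 (range without 1 library -0.119 to 0.0169). Myom2 in TAC+NT against Sham+NT (0.0756) was -0.0331 to -0.00949 without Sham+NT replicate 3 or TAC+NT replicate 3 (-0.0228) or 4, with a highest value of 0.149. In TAC+NT against TAC+GFP, Thra was 0.00137 by library total, 0.0124 averaged and 0.013 without TAC+GFP replicate 1 (lowest -0.115); Purb was -0.0461 as deposited, -0.00612 averaged, and -0.00971, -0.000524 and -0.0274 without TAC+GFP replicates 1 and 4 and TAC+NT replicate 2 (highest 0.119); Sp3 was 0.042 without TAC+NT replicate 4 (lowest -0.119); Mybpc2 was 0.0424 averaged. Same-numbered libraries did not deviate together over all genes (0 of 19 pairs correlated above 0.1, range -0.169 to 0.0738), and the main fit used no pairing. A correlation over all genes cannot show whether same-numbered libraries share something that touches only some genes. With a replicate block the Myh7b interaction was called (0.906, limma adjusted p = 0.00365). For the share, the block flipped the signs of differences between same-numbered libraries in place of the label permutation. The share interaction was then -15.1 points (exact sign-flip p adjusted 0.156). So few pairs cannot give an adjusted p under 0.05 over 5 comparisons, so this setting could not call it. The block gave 6586, 5498, 1026 and 77 called genes in TAC+GFP against Sham+GFP, TAC+NT against Sham+NT, TAC+NT against TAC+GFP and the interaction. Over all settings the counts ran from 5195 to 6989, 1894 (without Sham+NT replicate 3) to 5498, 158 (TAC replicates averaged) to 1417 (as deposited) and 0 to 127 (14 separate libraries), beside 6357, 4221, 812 and 10. Division by the library total made 60.6% and 69.5% of TAC calls higher in place of 48.4% and 50.5%, with an all-gene median of 0.0853 and 0.111, and values as deposited made 15.9% of calls higher between vectors in TAC in place of 44.7%. The interaction was not computed with only the groups compared, since it needs all 4. For regulators, alternatives added after seeing the data gave 5 to 7 higher and 12 to 14 lower in TAC+GFP against Sham+GFP. They gave 3 to 7 higher and 8 to 13 lower in TAC+NT against Sham+NT. In TAC+NT against TAC+GFP they gave 0 to 4 higher and 0 to 2 lower. For the thick filament and myosin folding genes, the same comparisons gave 4 to 6, 2 to 4 and 0 higher. Those called lower were 2 to 3, 0 to 6 and 0 to 7.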
